A study of Mus musculus with 12 samples.

Results

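The enzymes and regulators of de novo lipogenesis were followed through RNA-seq libraries of mouse adipose stromal vascular fraction. This is what remains of fat tissue once its mature fat cells have been taken away, and it holds fat cell precursors, vessel cells and leukocytes. The set was chosen by gene symbol: Fasn, Acaca, Acacb, Acly, Scd1, Elovl6, Me1, Srebf1, Dgat2 and Thrsp, 10 of the 24422 genes in the count tables. All 10 passed the filter on low counts and were among the 16713 genes tested. The 12 libraries formed 4 groups of 3, and every mouse carried 1 modified allele of p21 (Cdkn1a), a cell cycle inhibitor induced by DNA damage and senescence. SD mCherry libraries (replicates 1, 2 and 3) came from p21+/mcherry mice on a standard diet, and HFD mCherry libraries (15, 17 and 20) from p21+/mcherry mice on a high-fat diet. HFD Tert libraries (25, 26 and 27) came from p21+/mcherry-Tert mice on the high-fat diet, in which the p21 promoter drives the catalytic subunit of telomerase. HFD TertCi libraries (30, 31 and 33) came from p21+/mcherry-TertCi mice on the high-fat diet, whose Tert is catalytically inactive. The series text gives the high-fat control as p21+/- and does not mention mCherry for it, and the sample labels were followed. Age, sex, fat depot and batch are not in the labels. The labels do not say that replicates are separate animals, so p-values measure only the spread between these samples, which may be technical. No standard-diet group carried Tert or TertCi, so diet and knock-in were not crossed.

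De novo lipogenesis builds fatty acids from carbohydrate. Mitochondrial citrate is split in the cytosol to acetyl-CoA, which is carboxylated to malonyl-CoA and polymerised with NADPH to palmitate. Palmitate is then elongated, desaturated and esterified to triglyceride. Srebf1 encodes SREBP-1, the insulin-responsive transcription factor that switches on most of these genes. In fat tissue the pathway is best known in adipocytes, and many secretory epithelia also run it.

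The make-up of the libraries bears on every value below. Libraries held 16430330 to 19486965 counts. Adipoq, the defining secreted product of mature adipocytes, was at 0.552 to 7.85 CPM (read counts relative to the TMM-scaled library size) in all 12 libraries. Some other mature adipocyte markers were higher, with Fabp4 at 207 to 6132 CPM, and some were as low, with Retn at 0 to 4.05 CPM. The 18 listed markers summed to 545 to 866 CPM in SD mCherry and 1145 to 2042 CPM in HFD mCherry. Their sums were 1086 to 6506 CPM in HFD Tert and 1998 to 3760 CPM in HFD TertCi. Fabp4 weighed heavily in these sums, with 6132 of the 6506 CPM in HFD Tert replicate 27. Single markers did not all follow the sums. Cfd was at 10.1 to 19.2 CPM in SD mCherry and at 0.387 to 0.421 CPM in HFD mCherry. Crisp1, a secretory protein of the epididymal epithelium, was at 641 to 14780.3 CPM in 8 libraries and at 0 to 0.529 CPM in the other 4. Each group had exactly 1 library without it, namely SD mCherry replicate 2, HFD mCherry replicate 20, HFD Tert replicate 27 and HFD TertCi replicate 31. Epcam, an adhesion molecule of epithelial cells in general, ran from 3.23 to 543 CPM and did not follow Crisp1 throughout. SD mCherry replicate 2 lacked Crisp1 and had the highest Epcam, while HFD mCherry replicate 17 had Crisp1 at 641 CPM and Epcam at 11.1 CPM. HFD mCherry replicate 15 stood apart from its group, with Epcam at 289 CPM and Lcn5, an epididymal lipocalin, at 3638 CPM, against at most 7.36 CPM in the other libraries. Other epididymal markers were not confined to replicate 15. Lcn8 was at 2769 CPM there and at 1727 CPM in SD mCherry replicate 3, and Adam7 was at 4412 and 726 CPM. In bulk tissue, fewer cells of a type and less RNA per cell cannot be told apart.

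Sequence from 250 bases before to 50 bases after the annotated starts was taken from RefSeq (GRCm38.p6) for 8 of the 10 genes, in 11 windows, with 3 windows for Srebf1 and 2 for Me1. Scd1 and Dgat2 were not matched. The windows of 4 genes are shown, 5′ to 3′ on the gene's strand. Fasn and Srebf1 are the pair whose levels ran most closely together over the libraries, and Acly and Me1 are the pair with the lowest p-values between knock-in and control libraries. Capitals mark every match, on either strand, to CCAAT (the box bound by NF-Y), GGGCGG (the GC box bound by Sp1) or TATAAA, and to the E-box CACGTG and the sterol response element letters TCACCCCAC and TCACNCCAC, of which the first form is contained in the second.
Fasn: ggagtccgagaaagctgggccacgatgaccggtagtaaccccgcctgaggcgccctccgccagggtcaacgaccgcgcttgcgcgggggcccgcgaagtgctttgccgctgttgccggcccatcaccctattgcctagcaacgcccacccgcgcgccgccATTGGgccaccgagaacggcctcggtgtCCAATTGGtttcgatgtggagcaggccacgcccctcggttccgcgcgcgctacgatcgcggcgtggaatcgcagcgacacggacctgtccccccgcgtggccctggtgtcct
Srebf1: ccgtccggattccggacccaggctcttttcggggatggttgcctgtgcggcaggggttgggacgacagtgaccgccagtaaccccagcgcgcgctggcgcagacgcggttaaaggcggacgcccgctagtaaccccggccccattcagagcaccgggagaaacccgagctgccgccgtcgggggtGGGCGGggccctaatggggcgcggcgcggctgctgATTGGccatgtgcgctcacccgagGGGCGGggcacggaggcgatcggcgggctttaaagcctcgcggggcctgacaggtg
Acly: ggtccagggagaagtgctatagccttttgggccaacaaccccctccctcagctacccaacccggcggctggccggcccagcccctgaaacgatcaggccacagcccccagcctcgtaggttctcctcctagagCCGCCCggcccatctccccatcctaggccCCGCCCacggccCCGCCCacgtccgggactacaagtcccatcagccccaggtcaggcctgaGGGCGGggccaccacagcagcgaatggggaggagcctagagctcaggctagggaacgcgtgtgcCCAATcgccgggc
Me1: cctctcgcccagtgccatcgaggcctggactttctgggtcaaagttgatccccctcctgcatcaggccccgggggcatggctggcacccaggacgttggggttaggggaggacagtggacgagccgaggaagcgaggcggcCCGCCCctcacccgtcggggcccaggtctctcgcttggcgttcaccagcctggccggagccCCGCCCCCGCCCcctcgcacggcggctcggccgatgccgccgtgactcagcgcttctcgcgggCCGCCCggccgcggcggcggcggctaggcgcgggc

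These are chr11:120824498-120824797 for Fasn, chr11:60210422-60210721 for the third Srebf1 window, chr11:100527951-100528250 for Acly and chr9:86695865-86696164 for the first Me1 window, all on the minus strand. Their GC content was 69.3%, 70.7%, 68.7% and 74.7%, against a median of 52.7% over 32851 windows of the same length. The Fasn window held 3 CCAAT matches, the first at -90 from the start, and 2 of them share bases in the run CCAATTGG. CCAAT occurred in 6 of the 8 genes (Fasn, Acacb, Acly, Me1, Srebf1 and Thrsp), in 7 of their 11 windows and in 37.4% of all windows. The GC box occurred in 3 genes (Acly, Me1 and Srebf1), in 4 of the 11 windows and in 35.7% of all windows, with 4 matches each in the Acly window and the Me1 window shown. TATAAA occurred in Acacb alone, at -34, and in 13.6% of all windows. CACGTG, TCACCCCAC and TCACNCCAC, found in 7.15%, 0.551% and 1.24% of all windows, had no match in any of the 11 windows. A match is a description of the letters, and its absence says only that those letters are not in these windows.

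Levels of different genes were compared per length, as FPKM (CPM divided by the length of the merged exons in kilobases). Scd1 and Acly were the most abundant, with medians over the 12 libraries of 38.1 and 35.2 FPKM, followed by Srebf1 (20.1), Fasn (11.98) and Me1 (10.1). Elovl6 (6.74), Dgat2 (5.38) and Thrsp (2.97) were lower. Acacb (1.25) and Acaca (1.15), the 2 acetyl-CoA carboxylases, were lowest, although they make the substrate of Fasn. Merged exons pool those of all annotated transcripts, 17074 bases for Acaca and 9632 for Acacb. The low place of Acaca depends on that length, and its group means in CPM were above those of Acacb. The widest range belonged to Fasn, from 2.10 to 49.3 FPKM, a 23.4-fold difference between libraries, and the narrowest to Acaca, at 2.31-fold. Between 35.8% (Me1) and 99.6% (Acacb) of each gene's variance over the libraries lay within the 4 groups.

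**Figure D1:**
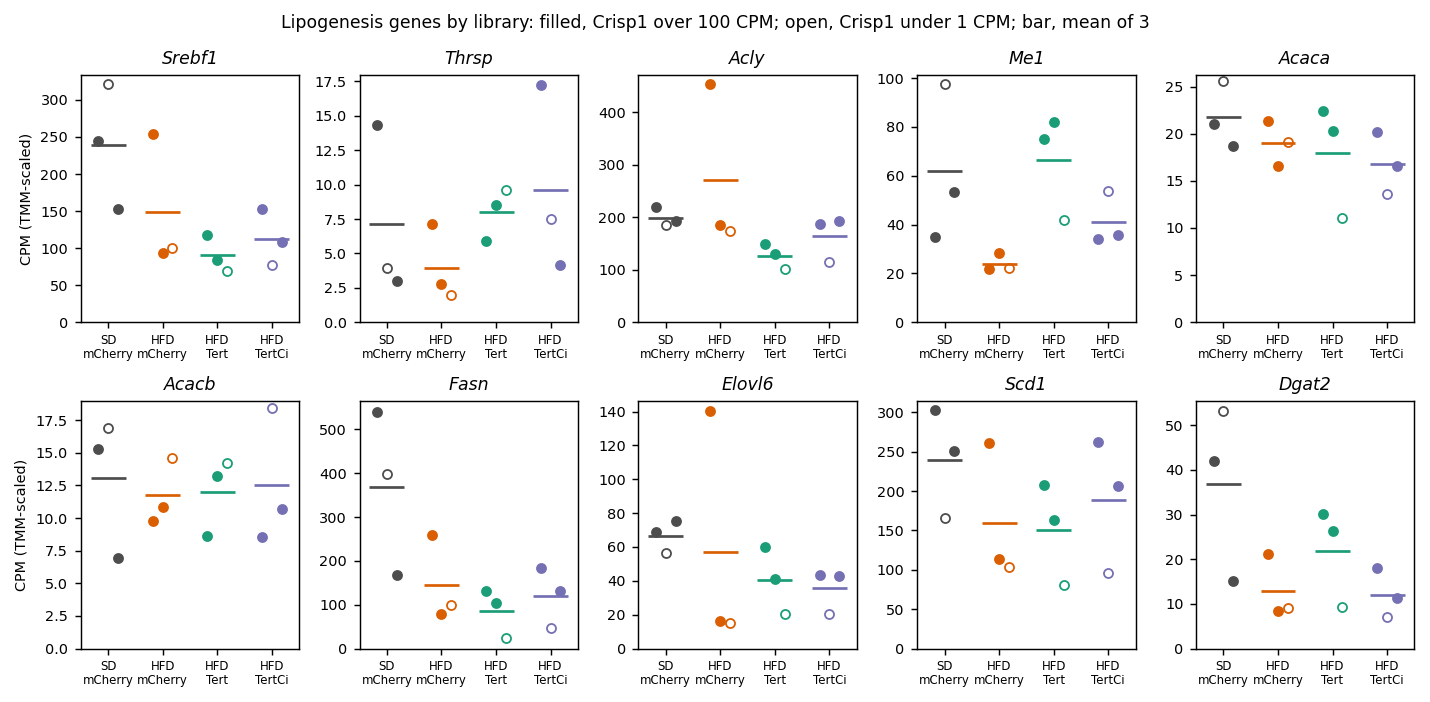
Level of each of the 10 genes in each library (y axis, CPM on a linear scale from 0) by group (x axis), with a bar at the mean of 3 libraries; filled points have Crisp1 over 100 CPM and open points under 1 CPM. Me1 was lower in all 3 HFD mCherry libraries (21.7 to 28.2 CPM) than in any other library, and HFD mCherry replicate 15 lay far above its group in Elovl6 and Acly.

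Srebf1, the regulator, is encoded on chromosome 11 (GRCm38, 60199089 to 60222581, minus strand). It was counted at 244, 322 and 152 CPM in the SD mCherry libraries, at 254, 93.0 and 99.9 CPM in HFD mCherry, at 118, 83.7 and 68.6 CPM in HFD Tert and at 153, 77.1 and 108 CPM in HFD TertCi. The standard-diet mean was the highest at 239 ± 84.7 CPM (SD, n = 3), but HFD mCherry replicate 15 lay inside the standard-diet range, so the groups overlapped. The group means ran in the order SD mCherry, HFD mCherry (149 ± 90.8), HFD TertCi (113 ± 38.0) and HFD Tert (90.1 ± 25.3), and neighbouring groups in this order overlapped. Srebf1 exons share 109 bases with Rai1 on the opposite strand and 66 with Mir6922, and the strand setting of the counting is not given, so a small part of its reads could belong to these. Thrsp (Spot 14), a small nuclear protein that promotes lipogenic gene expression, was scarce. Its counts ran from 33 to 338 reads a library, or 1.97 to 17.2 CPM, and its highest libraries were HFD TertCi replicate 30 (17.2 CPM) and SD mCherry replicate 1 (14.4 CPM).

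Acly, the ATP citrate lyase that makes cytosolic acetyl-CoA (chromosome 11, 100476353 to 100528000, minus strand), was counted at 219, 186 and 193 CPM in SD mCherry, at 455, 185 and 174 CPM in HFD mCherry, at 149, 129 and 101 CPM in HFD Tert and at 188, 114 and 192 CPM in HFD TertCi. All 3 HFD Tert libraries lay below all 3 HFD mCherry libraries, while the HFD TertCi libraries overlapped them. The HFD mCherry mean of 271 ± 159 CPM was set by replicate 15. Me1, the cytosolic malic enzyme that supplies NADPH (chromosome 9, 86581371 to 86695953, minus strand), was counted at 34.8, 97.7 and 53.2 CPM in SD mCherry, at 21.7, 28.2 and 22.2 CPM in HFD mCherry, at 75.0, 81.8 and 42.0 CPM in HFD Tert and at 34.2, 53.6 and 35.7 CPM in HFD TertCi. Its 3 HFD mCherry libraries were close together and lay below the other 9. Here replicate 15 did not stand apart. Me1 exons share 30 bases with the antisense transcript A330041J22Rik.

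The carboxylases were the steadiest pair across groups. Acaca (chromosome 11, 84129672 to 84401651, plus strand), which makes the malonyl-CoA used for synthesis, ran from 11.05 CPM in HFD Tert replicate 27 to 25.6 CPM in SD mCherry replicate 2, with group means of 16.8 to 21.8 CPM. Acacb (chromosome 5, 114146535 to 114250761, plus strand), whose product at the mitochondrion inhibits fatty acid import through Cpt1, had group means of 11.8 to 13.0 CPM and no visible group pattern. Its highest libraries were HFD TertCi replicate 31 (18.4 CPM) and SD mCherry replicate 2 (16.9 CPM), both without Crisp1.

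Fasn, the synthase that assembles palmitate (chromosome 11, 120805846 to 120824547, minus strand), was counted at 539.6, 398 and 168 CPM in SD mCherry, at 260.2, 79.5 and 98.2 CPM in HFD mCherry, at 132, 103 and 23.0 CPM in HFD Tert and at 183, 45.8 and 130.2 CPM in HFD TertCi. The standard-diet mean of 369 ± 187 CPM compared with 146 ± 99.4 in HFD mCherry, 119.7 ± 69.1 in HFD TertCi and 86.0 ± 56.5 in HFD Tert. SD mCherry replicate 3 lay below HFD mCherry replicate 15, so these groups overlapped. Elovl6, which elongates palmitate to stearate (chromosome 3, 129532355 to 129638495, plus strand), was counted at 68.7, 56.3 and 75.2 CPM in SD mCherry, at 140.1, 16.2 and 15.2 CPM in HFD mCherry, at 59.8, 41.1 and 20.7 CPM in HFD Tert and at 43.7, 20.4 and 43.1 CPM in HFD TertCi. HFD mCherry thus held both the highest library and the 2 lowest. Elovl6 exons share 34 bases with Gm35986 on the opposite strand. Scd1, the desaturase that makes oleate (chromosome 19, 44394455 to 44407879, minus strand), was counted at 303, 166 and 250.4 CPM in SD mCherry, at 261, 113 and 104 CPM in HFD mCherry, at 208, 163 and 81.2 CPM in HFD Tert and at 263, 96.3 and 207 CPM in HFD TertCi. Its lowest library in every group was the library without Crisp1.

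Dgat2, which adds the last acyl chain of triglyceride (chromosome 7, 99153658 to 99182719, minus strand), was counted at 42.0, 53.1 and 15.1 CPM in SD mCherry, at 21.1, 8.30 and 9.14 CPM in HFD mCherry, at 30.1, 26.4 and 9.40 CPM in HFD Tert and at 18.1, 6.95 and 11.2 CPM in HFD TertCi. Its mean was 36.7 ± 19.6 CPM on the standard diet and 12.8 ± 7.16 CPM in HFD mCherry. The groups overlapped through SD mCherry replicate 3.

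The first comparison asked what the high-fat diet was associated with in p21+/mcherry mice. Nearly all lipogenesis genes had lower means on the high-fat diet: 9 of 10 log2 fold changes were negative, with a median of -0.64 against -0.08 over all genes tested. No gene of the 10 passed edgeR's quasi-likelihood test at a Benjamini-Hochberg adjusted p under 0.05, where 0.0479% of all genes did in either direction. At an unadjusted p under 0.05 there were 2 of 10 (Me1 and Dgat2), against 24.1% of all genes, a share near the background. DESeq2 called 1 (Me1, adjusted p = 0.0113), where it called 12.4% of all genes in either direction, and limma-voom called 0. Me1 had a log2 fold change of -1.36 (SE 0.38, edgeR adjusted p = 0.0891), a 2.57-fold lower level, and was the only member whose groups did not overlap, while 11.6% of all genes did not overlap with lower and 13.9% with higher values. Dgat2 had -1.52 (SE 0.60, adjusted p = 0.168) and Fasn -1.34 (SE 0.73, adjusted p = 0.277). The remaining negative values were Thrsp -0.85, Srebf1 -0.69, Scd1 -0.59, Elovl6 -0.22, Acaca -0.19 and Acacb -0.15. Acly was at 0.44 (SE 0.36).

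HFD mCherry replicate 15 decided several of these values. Without it the Elovl6 log2 fold change was -2.09 (SE 0.47, edgeR adjusted p = 0.0237), in a fit that called 3.44% of all genes lower, and the Acly value turned to -0.15. Fasn moved to -2.05 and Srebf1 to -1.31 (adjusted p = 0.0536), and neither passed. Me1 was much the same at -1.29 (adjusted p = 0.0841). Epithelial transcripts also differed between the diet groups. Epcam was at 344, 543 and 331 CPM in SD mCherry and at 289, 11.1 and 36.9 CPM in HFD mCherry, and the summed level of the 22 epididymal and epithelial markers, 16 of them tested, was 1994 to 58172.9 CPM against 103 to 19073.7 CPM. Macrophage markers (16 of 16 tested) summed to 1021 to 1397 CPM in SD mCherry and 3188 to 9748 CPM in HFD mCherry. In a fit with Epcam as a term, added once the values were known, the Fasn value was -0.16 (SE 0.41) and the Srebf1 value -0.14 (SE 0.31), those of Acaca, Scd1 and Elovl6 turned positive, and Me1 was at -1.28 (SE 0.48, adjusted p = 0.355). Every SD mCherry library had more Epcam than every HFD mCherry library, so diet and Epcam cannot be told apart between these groups in that fit. With Crisp1 as the term Me1 was at -1.35 (adjusted p = 0.0559), and with the mean level of the epididymal and epithelial markers it was at -1.38 and passed (adjusted p = 0.0444), in a fit that called 2.65% of all genes lower. In a fit of only the 8 libraries with Crisp1, also added once the values were known, it was at -0.82 (SE 0.28, adjusted p = 0.234). Mesothelial markers (9 of 10 tested) summed to 1432 to 4502 CPM in SD mCherry and 392 to 1357 CPM in HFD mCherry. Whether macrophage or mesothelial content had a part in the Me1 difference was not tested.

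**Figure D2:**
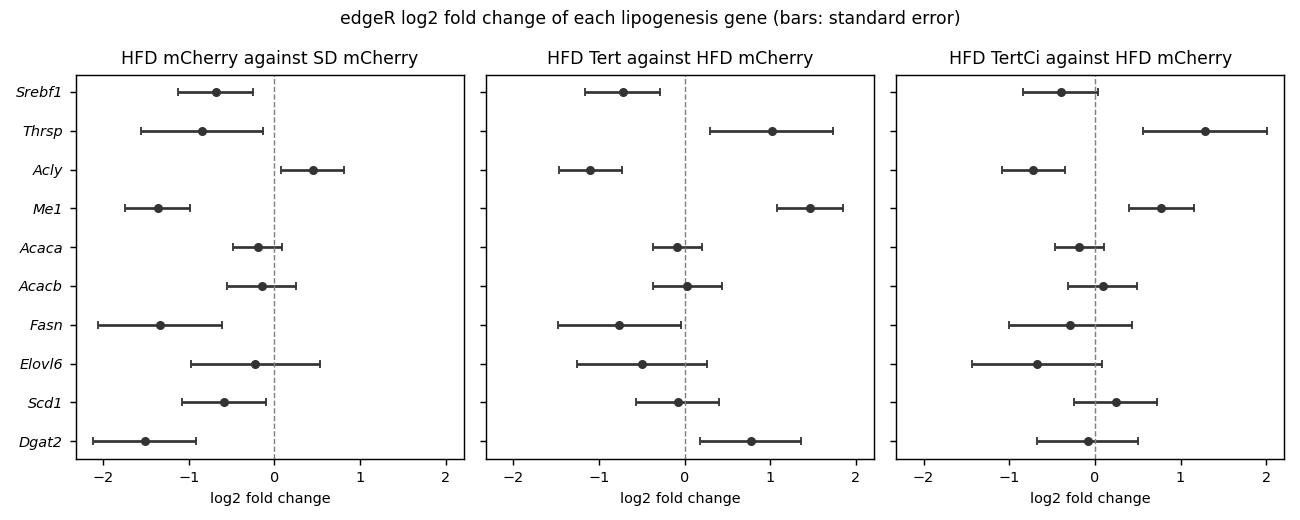
Log2 fold change (x axis) with its standard error for each gene in the diet comparison (left), HFD Tert against HFD mCherry (middle) and HFD TertCi against HFD mCherry (right). Me1 lies at -1.36, 1.46 and 0.78, and no gene passed the edgeR test in any panel. The 3 comparisons share the HFD mCherry libraries.

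The next comparisons asked how p21-driven Tert or TertCi changed expression on the high-fat diet. They share the HFD mCherry libraries with the diet comparison and with each other, so their values are given side by side and are not independent. In HFD Tert, Me1 was 2.76-fold higher than in HFD mCherry (log2 fold change 1.46, SE 0.38, edgeR adjusted p = 0.188) and Acly 2.15-fold lower (-1.10, SE 0.37, adjusted p = 0.224). These were the 2 members with non-overlapping groups, where 9.99% of all genes did not overlap with higher values and 11.1% with lower values. The edgeR test called 0 of 10 members and 0% of all genes, and at an unadjusted p under 0.05 there were 2 of 10 against 16.4% of all genes. DESeq2 called 1 member, Me1 (adjusted p = 0.0158), with 5.07% of all genes called, and limma-voom called 0. The median of the 10 was -0.08 against -0.05 over all genes. Fasn was at -0.76 and Srebf1 at -0.72, while Thrsp was at 1.02 and Dgat2 at 0.77, with standard errors of 0.44 to 0.72.

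In HFD TertCi, Me1 was at 0.78 (SE 0.38, edgeR adjusted p = 0.375) and was the 1 member with non-overlapping groups, where 9.45% of all genes did not overlap with higher and 12% with lower values. Acly was at -0.72 (SE 0.37, adjusted p = 0.393) and Thrsp at 1.28 (SE 0.72). The edgeR test called 0 of 10 members, where 0.012% of all genes were called, and 0 members had an unadjusted p under 0.05, against 14.7% of all genes. DESeq2, which called 4.09% of all genes, and limma-voom called 0 of 10. Taking both knock-ins against HFD mCherry, Me1 stood at 53.7 ± 20.4 CPM (n = 6) against 24.0 ± 3.61 CPM (n = 3), a log2 fold change of 1.12 (SE 0.34, edgeR adjusted p = 0.116). All 6 knock-in libraries lay above the 3 controls, as they did for 6.01% of all genes, and 7.03% of all genes had all 6 below. Acly stood at 146 ± 38.0 CPM against 271 ± 159 CPM (-0.91, SE 0.31, adjusted p = 0.142). The edgeR test called 0 of 10 members and 0.168% of all genes, with 2 of 10 under an unadjusted p of 0.05 against 21% of all genes. DESeq2 called Me1 (adjusted p = 0.0232, 9.23% of all genes called) and limma-voom called 0.

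Acly depended on HFD mCherry replicate 15 and on the covariate. Without that library the Acly value for both knock-ins was -0.32 (adjusted p = 0.406). With Epcam as covariate it was -0.85 (SE 0.20, adjusted p = 0.0329), in a fit that called 4.77% of all genes lower. With the epididymal and epithelial marker level as covariate it was -0.76 (adjusted p = 0.0177, 6.96% of all genes called lower), and in HFD Tert alone -0.87 (adjusted p = 0.0294, 4.27% called lower). It did not pass with Crisp1 as covariate, at -0.94 for both knock-ins (adjusted p = 0.0571) and -1.13 in HFD Tert (adjusted p = 0.1002), nor in HFD Tert with Epcam, at -0.89 (adjusted p = 0.0676). Elovl6 also turned, from -0.59 to 1.28 (SE 0.42, adjusted p = 0.118), when replicate 15 was left out. Me1 stayed between 1.05 and 1.15 in the fits without replicate 15 and with the Crisp1, Epcam or epithelial marker covariates, and passed in none of these 4. Macrophage markers summed to 974 to 3808 CPM in HFD Tert and 1096 to 2459 CPM in HFD TertCi, so that HFD Tert lay below 2 and HFD TertCi below all 3 of the HFD mCherry libraries, and their part in the Me1 and Acly values was not tested. Mesothelial markers summed to 907 to 2629 CPM in HFD Tert and 1260 to 1710 CPM in HFD TertCi, overlapping HFD mCherry. Among them Msln was at 77.3 to 304 CPM in the knock-ins and 24.1 to 36.4 CPM in HFD mCherry, while Krt8 overlapped. Their part was not tested either.

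HFD Tert and HFD TertCi differ in the catalytic activity of the telomerase subunit. Between them no member passed the edgeR test (all adjusted p = 1), 0% of all genes were called in either direction, 0 of 10 had an unadjusted p under 0.05 against 1.36% of all genes, and 0 of 10 had non-overlapping groups against 2.55% higher and 2.58% lower. DESeq2 (0.0539% of all genes called) and limma-voom called 0 of 10. The values farthest from 0 were Dgat2 at 0.86 (SE 0.59), Me1 at 0.69 (SE 0.38) and Fasn at -0.48 (SE 0.72), so differences of this size were not resolved with 3 libraries a group. An F-test over the 4 groups called 0 of 10 with edgeR (0.012% of all genes), the lowest adjusted p being 0.158 for Me1, and 2 of 10 had an unadjusted p under 0.05 (Me1 and Srebf1), against 20.2% of all genes. DESeq2 called 1 in a likelihood ratio test over the 4 groups (13.8% of all genes).

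Crisp1 was used to check the set against epithelial admixture. Libraries with and without it overlapped in Epcam (log2 difference 2.01, SE 1.16, edgeR adjusted p = 0.269, with group means in the model). Skeletal muscle markers (8 of 10 tested) did not overlap. They summed to 54.8 to 818 CPM in the 8 libraries with Crisp1 and to 6.29 to 29.1 CPM in the 4 without. Which tissue had a part in the differences below was not tested. With group means in the model, the 8 libraries with Crisp1 had a Scd1 level 2.02-fold that of the 4 without (log2 difference 1.01, SE 0.23, edgeR adjusted p = 0.0542). The corresponding log2 differences were 1.21 for Elovl6 (SE 0.51), 1.08 for Fasn (SE 0.50), 0.55 for Acly (SE 0.23) and -0.61 for Acacb (SE 0.23). The test called 0 of 10 members, where 1.52% of all genes were called higher and 0.0419% lower, and 4 of 10 had an unadjusted p under 0.05 against 29.4% of all genes. Scd1, Elovl6 and Acly were lower in the library without Crisp1 than in both other libraries of its group in all 4 groups, and Acacb was higher in all 4. The share of all genes with either order in all 4 groups was not computed. Fasn, Srebf1, Dgat2, Acaca, Me1 and Thrsp kept to neither order in all 4 groups. In SD mCherry replicate 2, which had no Crisp1 and the highest Epcam, Srebf1, Dgat2, Acaca and Me1 were above both other libraries of the group. Fasn lay between the other libraries in SD mCherry and in HFD mCherry. Me1 was at -0.25 (SE 0.28).

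**Figure D3:**
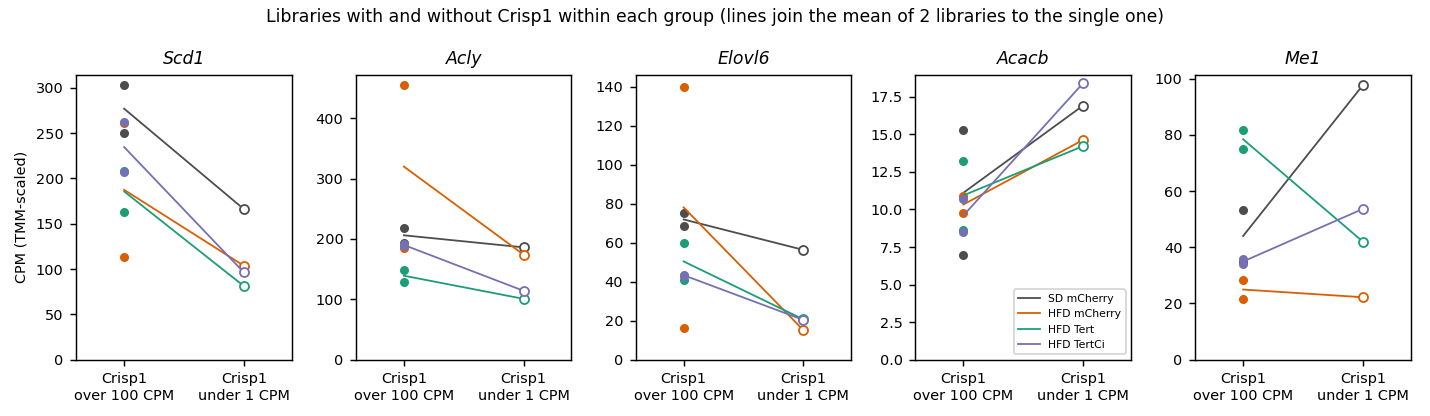
Level of 5 genes (y axis, CPM from 0) in the 2 libraries of each group with Crisp1 over 100 CPM (left points) and the 1 library with Crisp1 under 1 CPM (right, open), with lines from the mean of the left points. Scd1, Acly and Elovl6 go down in all 4 groups, Acacb goes up in all 4, and Me1 goes in different directions. The share of all genes that do the same was not computed.

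The levels were also set against Epcam in all 12 libraries and against Crisp1 in the 8 that had it, so the coefficients of the 2 markers rest on different libraries. Over the 12 libraries, Fasn and Epcam had a Pearson r of 0.915 (permutation p = 3.0e-05, adjusted over 20 relations 0.00060) and a Spearman rho of 0.965 (permutation p = 3.0e-05). Without the 2 libraries farthest from the median Epcam, HFD Tert replicate 27 and HFD mCherry replicate 17, r was 0.891, and with each value centred on its group r was 0.907. Both were log2(CPM + 0.1) values. Pearson r was 0.885 for Scd1, 0.845 for Acaca, 0.840 for Srebf1, 0.818 for Elovl6 and 0.743 for Dgat2, with adjusted permutation p of 0.0026 to 0.0196. Spearman rho for these 5 was 0.804, 0.741, 0.930, 0.825 and 0.797, and their r was 0.712 to 0.872 without the same 2 libraries and 0.803 to 0.907 with values centred on their groups. Single groups did not all follow this. In SD mCherry the library with the highest Epcam had the lowest Elovl6 and Scd1, and in HFD mCherry both genes were lower at Epcam 36.9 CPM than at 11.1 CPM. Acly had r = 0.615 (permutation p = 0.0320, adjusted 0.0800), rho = 0.741 (adjusted permutation p = 0.0222) and r = 0.817 with centred values. Acacb (r = -0.336, rho = -0.175), Me1 (0.191 and 0.154) and Thrsp (0.115 and 0.070) had adjusted permutation p-values of 0.498 or more. Within the 8 libraries that had Crisp1, the highest r with its level was that of Scd1, at 0.774 (exact permutation p = 0.0256, adjusted 0.0731; rho 0.619, exact permutation p = 0.115). Epcam was chosen as a marker after the data were seen, and its permutations ran over the 12 libraries without regard to group. How many of all genes tested had coefficients this high was not computed, so whether these values are particular to the set is not known. The part that epithelial RNA had in the levels of these genes was not tested.

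**Figure D4:**
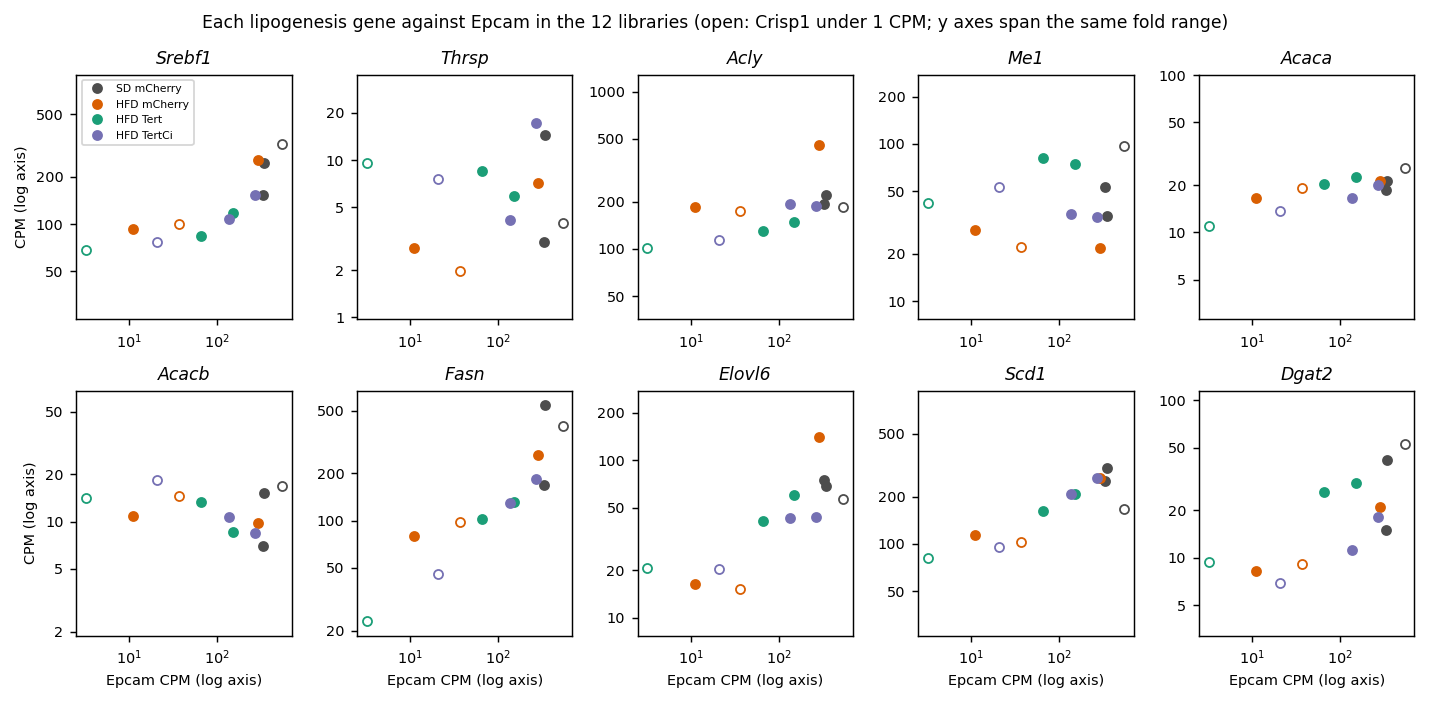
Level of each gene (y axis, CPM, log axis spanning the same fold range in each panel) against Epcam (x axis, CPM, log axis) in the 12 libraries, coloured by group, with open points for libraries with Crisp1 under 1 CPM. Over the 12 libraries Fasn, Scd1, Acaca, Srebf1, Elovl6 and Dgat2 run upward with Epcam (Fasn r = 0.915, Acaca r = 0.845). Acly does so less closely (r = 0.615), and Me1, Acacb and Thrsp do not. Within SD mCherry, however, Elovl6 runs downward (75.2, 68.7 and 56.3 CPM at Epcam 331, 344 and 543 CPM).

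The 10 genes therefore did not vary as 1 block. Among the 7 genes Fasn, Acaca, Acly, Scd1, Elovl6, Srebf1 and Dgat2, grouped after their values were seen, the 21 pairs had Pearson r of 0.31 to 0.92 over the 12 libraries, with a median of 0.72, given as a description. The highest was that of Fasn with Srebf1, the synthase and its regulator, at 0.92. Acacb ran from -0.56 to -0.01 with the 7, Me1 from -0.50 to 0.48 and Thrsp from -0.07 to 0.33. All libraries share the cell mixtures described above, and these correlations carry that.

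The rest of the pathway was read from 6 lists. No gene of any list passed the edgeR test in any comparison. Among the 17 regulators, 3 were higher and 1 lower at an unadjusted p under 0.05 with the diet, and the median was -0.03. Nr1h3, the sterol sensor LXR-alpha that activates Srebf1, was at 11.3 ± 5.98 CPM in SD mCherry and 33.4 ± 13.7 CPM in HFD mCherry (1.57, SE 0.64, adjusted p = 0.176), and Mbtps1, the protease that cleaves SREBP, at 0.33. Prkaa2, a catalytic subunit of the AMP-activated kinase that inhibits the carboxylases, was at 30.8 ± 9.19 and 7.999 ± 1.47 CPM (-1.94, SE 0.61, adjusted p = 0.110), and Mlx, the partner of the glucose-responsive factor ChREBP, at -0.38. For both knock-ins the counts were 1 higher and 4 lower with a median of -0.19. Usf1, an E-box factor of the Fasn promoter, was at 0.55 and Srebf2, the sterol-regulating relative of Srebf1, at -0.30. Nr1h3 is also expressed by macrophages, whose summed markers are given above.

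Among the 23 genes for acetyl-CoA, citrate and NADPH supply, 20 had negative diet values (median -0.37), with 1 higher and 4 lower at an unadjusted p under 0.05. The positive values were those of Acss1 (0.47), G6pdx (0.04) and Hk2. Hk2, the insulin-regulated hexokinase that commits glucose to metabolism, was at 79.4 ± 16.6 CPM in SD mCherry and 296 ± 48.7 CPM in HFD mCherry (1.90, SE 0.32, adjusted p = 0.0652). The knock-in libraries stood at 99.1 ± 30.2 CPM (-1.58, SE 0.26, adjusted p = 0.0512), and in neither comparison did the groups overlap. Mdh1, the cytosolic malate dehydrogenase that makes the malate used by Me1, was at -1.44 with the diet and Acss2, which makes acetyl-CoA from acetate, at -1.01. For both knock-ins 17 of 23 values were positive (median 0.27), with 4 higher and 1 lower at an unadjusted p under 0.05. Gpi1, a glycolytic isomerase, was at 0.67 (SE 0.17, adjusted p = 0.0830) and Pdhb, a pyruvate dehydrogenase subunit, at 0.53. Pgd, an NADPH-producing enzyme of the pentose phosphate pathway, was at -0.53.

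Desaturation and elongation (18 of 19 genes tested) had a diet median of -0.73, with 1 higher and 1 lower at an unadjusted p under 0.05, and a knock-in median of 0.05. Elovl7, an elongase of saturated chains, was at 28.2 ± 15.6 CPM in SD mCherry and 7.50 ± 3.83 CPM in HFD mCherry (-1.91, SE 0.47, adjusted p = 0.0738), and Hacd2, a dehydratase of the elongation cycle, at -1.67. Oxsm, of mitochondrial fatty acid synthesis, was at -0.62 and Hsd17b12, the ketoreductase of elongation, at -0.45 in the knock-ins. Triglyceride synthesis (20 of 22 tested) had 5 higher and 1 lower at an unadjusted p under 0.05 with the diet and a median of -0.09. Acsl3, an acyl-CoA synthetase of lipid droplets, was at -0.84 and Lpin3, a phosphatidate phosphatase, at 0.68. In the knock-ins its median was -0.05. Lpin2, another phosphatidate phosphatase, stood at 49.7 ± 9.02 CPM against 110.0 ± 22.4 CPM (-1.16, SE 0.28, adjusted p = 0.0795), and Agpat3, an acyltransferase, was at -0.76.

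Cholesterol synthesis (21 genes), which the related factor SREBP-2 controls, had 17 negative diet values and a median of -0.60, with 2 higher and 2 lower at an unadjusted p under 0.05. Fdft1, the squalene synthase, was at 0.74 and Ebp, a sterol isomerase, at 0.42. In the knock-ins the median was -0.03 and Ebp was at -0.42. Lipolysis and fatty acid oxidation (20 genes), the opposing pathway, had a diet median of -0.39 with 1 higher and 6 lower at an unadjusted p under 0.05. Pdk4, the kinase that shuts pyruvate dehydrogenase, was at 141 ± 81.3 CPM in SD mCherry and 43.6 ± 13.8 CPM in HFD mCherry (-1.69, SE 0.49, adjusted p = 0.0947). Ppara, the fatty acid-sensing receptor, was at -2.74 (SE 1.05) and Abhd5, the activator of adipose triglyceride lipase, at 0.78. In the knock-ins the median was 0.30, with 15 of 20 values positive and 3 higher and 1 lower at an unadjusted p under 0.05. Lipe, hormone-sensitive lipase, was at 0.73 (SE 0.21, adjusted p = 0.104), Mgll, monoglyceride lipase, at 0.68 and Cpt1a, the mitochondrial import enzyme, at -0.44. These diet shares stand against 24.1% and the knock-in shares against 21% of all genes at the same unadjusted threshold.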

How the data were processed

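RNA from the stromal vascular fraction was enriched for mRNA on poly-T beads and primed with random hexamers for cDNA, per the labels' protocols. For each library the authors deposited raw counts of 24422 gene symbols, per the file headers. Subread, SAMtools, featureCounts 1.6.4 and build mm10 are named in the submitters' processing notes, without role or order. The annotation and strand setting are not given in the sources used here. Rows without a gene name numbered 0.

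Counts were tested as deposited with edgeR 4.0.16 in R 4.3.3 (filterByExpr with the 4 groups, TMM factors of 0.854 to 1.15, 1 robust quasi-likelihood model of all 12 libraries, no covariate, Benjamini-Hochberg adjustment over 16713 genes, called at an adjusted p under 0.05). The common biological coefficient of variation was 0.536. Groups came from the labels. Tests were 2-sided. The fitting was tested on simulated data. CPM (TMM-scaled) and FPKM were computed here, the second with GENCODE M21 merged exons on GRCm38. Correlations used log2(CPM + 0.1) and 2-sided permutation tests.

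The genes, lists and tests were chosen with earlier results of these data known. From each of 6 pathway lists the text names called genes and, in the diet and the both knock-ins comparisons, at most 2 genes at each end of the log2 fold changes, taken from genes whose groups did not overlap and whose mean reached 1 CPM. Some genes that met this rule are not reported here. The 5 genes most like the set were ranked by Pearson r with its mean standardised level. Cell types were read from 9 marker lists. Of the listed genes 1 was not matched and 3 were found under an older symbol.

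Alternatives were DESeq2 1.42.0, limma-voom (limma 3.58.1), library sizes without TMM, no filter on low counts, only the groups compared, a Crisp1 or an epididymal and epithelial covariate, and leaving out each library. An Epcam covariate, a fit of only the 8 libraries with Crisp1 over 100 CPM, the Crisp1 presence term and the correlations with Epcam and Crisp1 were chosen after seeing the data.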

Additional observations from a re-analysis of the deposited data

How the results depend on the processing

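Of 905 recomputed values, 820 kept their direction and their side of the threshold, 68 changed sign and 17 newly passed a threshold or raised a count. No lipogenesis gene passed the edgeR threshold in the model of all libraries without a covariate. Whether a value past that threshold would keep its sign could therefore not be tested. The count of lipogenesis genes called was 0 with edgeR in every comparison. With DESeq2 it became 1 in the diet, Tert and both knock-ins comparisons and in the test over the 4 groups (Me1 in each). It became 1 with the epididymal and epithelial covariate in the diet (Me1), Tert and both knock-ins (Acly) comparisons, and 1 with the Epcam covariate in both knock-ins (Acly). Leaving out each library gave 0 to 1 in the diet comparison, the 1 being Elovl6 without HFD mCherry replicate 15, and 0 in the others. DESeq2 called 2069 genes in all for the diet where edgeR called 8. Over the 4 groups DESeq2 called 2303 by a likelihood ratio test, where edgeR called 2 by an F-test. In the Tert comparison DESeq2 called 847 against 0, and in both knock-ins 1543 against 28. The epithelial covariate called 1748, 965 and 1623 in the diet, Tert and both knock-ins comparisons, and the fit without replicate 15 called 2082 in the diet. The cause of these differences was not tested.

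Values below are log2 fold changes, none past its threshold apart from Elovl6 at -2.09. With the Epcam covariate the values of opposite sign were, in the diet comparison Acaca 0.25, Scd1 0.10, Elovl6 0.43, and in the Tert comparison Acacb -0.059, Scd1 0.094, Elovl6 0.26, and in the Tert against TertCi comparison Fasn 0.077, Scd1 0.093, Srebf1 0.051. With only the 8 libraries that had Crisp1 the values of opposite sign were, in the diet comparison Elovl6 0.12, and in the Tert comparison Acaca 0.17, and in the TertCi comparison Acacb -0.11, and in the Tert against TertCi comparison Acacb 0.19, and in the both knock-ins comparison Acaca 0.058, Acacb -0.011. Without TMM scaling the values of opposite sign were, in the Tert comparison Acaca 0.00092. With the epididymal and epithelial covariate the values of opposite sign were, in the Tert comparison Acacb -0.053, Scd1 0.10, Elovl6 0.39, and in the Tert against TertCi comparison Thrsp 0.033, and in the both knock-ins comparison Elovl6 0.14. With limma-voom the values of opposite sign were, in the Tert comparison Elovl6 0.17, and in the TertCi comparison Elovl6 0.050, and in the Tert against TertCi comparison Acacb 0.016, and in the both knock-ins comparison Elovl6 0.11. With the Crisp1 covariate the values of opposite sign were, in the Tert against TertCi comparison Acacb 0.014, and in the both knock-ins comparison Scd1 -0.062. Leaving out each library in turn changed the sign of others, and their lowest and highest values follow. In the diet comparison these ranges were Acacb -0.45 to 0.081, Acly -0.15 to 0.68, Elovl6 -2.09 to 0.23, Thrsp -1.58 to 0.18. In the Tert comparison these ranges were Acaca -0.28 to 0.17, Acacb -0.10 to 0.22, Scd1 -0.38 to 0.47, Elovl6 -0.95 to 1.37. In the TertCi comparison these ranges were Fasn -0.73 to 0.43, Acacb -0.29 to 0.31, Scd1 -0.073 to 0.80, Elovl6 -1.13 to 1.19, Srebf1 -0.68 to 0.22, Dgat2 -0.50 to 0.47. In the Tert against TertCi comparison these ranges were Acaca -0.099 to 0.35, Acacb -0.27 to 0.32, Elovl6 -0.21 to 0.50, Thrsp -0.63 to 0.45. In the both knock-ins comparison these ranges were Fasn -0.82 to 0.19, Acacb -0.13 to 0.25, Scd1 -0.15 to 0.64, Elovl6 -1.04 to 1.28, Srebf1 -0.81 to 0.063.

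No paired analysis was possible because no replicate number in the labels recurs between groups. With 3 libraries a group and a coefficient of variation of 0.536, standard errors of the 10 genes reached 0.76 on the log2 scale, and Thrsp rests on as few as 33 reads.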

Other observations

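The genes outside the set whose levels ran most like its mean standardised level over the 12 libraries were BC021767 (r = 0.98), Msi2 (0.98), Nek4 (0.97), Sypl2 (0.97) and Ccdc103 (0.97), out of 15293 genes ranked. Msi2, an RNA-binding protein, stood at 113 CPM in SD mCherry and at 57.4 to 62.3 CPM in the high-fat groups. The other 4 were at or below 14.1 CPM in each group. These are descriptions of likeness over libraries that share their cell mixtures.

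The 2 genes of this paragraph were chosen after their values were seen. Scd2, a second stearoyl-CoA desaturase, was at 794, 611 and 447 CPM in SD mCherry, at 797, 87.8 and 77.6 CPM in HFD mCherry, at 358, 187 and 62.5 CPM in HFD Tert and at 547, 74.9 and 367 CPM in HFD TertCi. It thus had the same high HFD mCherry library, replicate 15, as Elovl6 and Acly. Mlxipl, which encodes the glucose-responsive lipogenic factor ChREBP, averaged 15.1 ± 10.2 CPM on the standard diet. Its means on the high-fat diet were 5.31 ± 7.60 CPM with mCherry, 0.280 ± 0.247 CPM with Tert and 1.44 ± 1.58 CPM with TertCi. The HFD Tert libraries lay below all HFD mCherry libraries (log2 fold change -4.21, SE 1.46, edgeR adjusted p = 0.229), which did not pass the threshold. In this comparison 11.1% of all genes did not overlap with lower values. The Mlxipl SD in HFD mCherry exceeded its mean, and the HFD Tert mean was under 1 CPM, so the size of this difference is uncertain.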
